A study of Mus musculus with 16 samples.

Results

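Hippocampus from Bgn knockout mice that drank fructose was compared with hippocampus from Bgn knockout mice that drank plain water, gene by gene, in the deposited table of RNA-seq expression values. The comparison used 8 of the 16 libraries, 4 on fructose and 4 on water. It covered every named gene whose mean over all 16 libraries was at least 1 FPKM (a fragment count scaled by transcript length and library size), which were 12648 of 22572 names after loci of 1 name were summed. All mice were male C57BL/6. The knockout mice, labelled Bgn0/- and called BgnKO below, and the wild-type mice (WT) were given either 15% (w/v) fructose in their drinking water or regular water for 6 weeks, starting at 3 months of age. The labels name neither the deleted part of Bgn nor the animals behind the 4 numbered replicates of a group. The p-values therefore refer to the spread of these libraries, which may be technical.

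Bgn, on the X chromosome, encodes biglycan, which belongs to the small leucine-rich proteoglycans and in the matrix around cells binds collagen and growth factors and, once released, can signal through Toll-like receptors. Fructose enters cells through hexose transporters of the Slc2a family and is mainly cleared by liver and gut, from where a high intake is known to alter lipid and insulin metabolism. The hippocampus, built from the pyramidal neurons of the CA fields, the granule neurons of the dentate gyrus, interneurons and glia, serves learning and memory and is rich in insulin receptors.

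The targeted gene itself checked the labels in part. Bgn read 4.46, 7.23, 7.19 and 7.60 FPKM in BgnKO water replicates 1 to 4 and 5.02, 6.69, 6.73 and 7.11 FPKM in BgnKO fructose replicates 1 to 4. Over both drinks its level was 6.50 ± 1.14 FPKM in BgnKO (SD, n = 8) and 16.01 ± 6.42 FPKM in WT (SD, n = 8), with p = 0.00109 in a 2-sided exact permutation test. The ranges overlapped, since the lowest WT library read 5.42 FPKM, inside the BgnKO range. Fructose and water did not differ detectably for Bgn within BgnKO, with a log2 fold of -0.03 and a 95% interval of -0.75 to 0.69. Markers of hippocampal neurons were present in every BgnKO library: Slc17a7, the vesicular glutamate transporter of cortical and hippocampal pyramidal cells, read 506 to 606 FPKM on water and 565 to 720 FPKM on fructose. Replicate 1 stood apart from the other numbers in both BgnKO groups. Its root mean square log2 difference from replicates 2 to 4 was 0.302 to 0.378 on water and 0.354 to 0.459 on fructose, against 0.179 to 0.268 and 0.263 to 0.312 among replicates 2 to 4.

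No single gene passed the test for fructose against water in BgnKO. Genes of the ribosome, the respiratory chain and myelin mostly lay higher on fructose, and genes of ion channels and transmitter receptors mostly lower, each by small amounts. Typical differences were small: the median absolute log2 fold was 0.0998, the median standard error 0.103 and the median half-width of the 95% interval 0.220. Only 12 genes had a log2 fold of 1 or more in size and 90 had one of 0.5 or more. In limma's moderated test on log2(FPKM + 1), with Benjamini-Hochberg adjustment over all 12648 genes, 0 genes were past an adjusted p of 0.05 in either direction and the smallest adjusted p was 0.318. At an unadjusted p under 0.05, 1630 genes (12.9%) stood out, of which 802 (6.34%) lay higher on fructose and 828 (6.55%) lower. The 4 fructose libraries lay entirely above the 4 water libraries for 238 genes (1.88%) and entirely below them for 267 genes (2.11%). Every refit also gave 0 calls, over 28 alternatives whose smallest adjusted p ran from 0.0521 to 0.767. The unadjusted count was 3442 (27.2%) with the replicate number as a block and 1057 with only the 8 BgnKO libraries in the fit. It was 824 without BgnKO fructose replicate 4 and 809 without BgnKO water replicate 2. An adjusted p above the threshold does not show that these genes were alike on both drinks.

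Among the genes of smallest unadjusted p on the higher side, named as values only, were genes of mitochondria, lysosomes and lipid metabolism. Pyurf (chromosome 6, 57686576 to 57692078, minus strand, GRCm38), which encodes a small mitochondrial protein, read 3.42, 2.96, 4.03 and 3.12 FPKM in water replicates 1 to 4 and 5.46, 4.83, 4.80 and 5.36 FPKM in fructose replicates 1 to 4. Every fructose library lay above every water library. Its mean went from 3.38 ± 0.47 to 5.11 ± 0.34 FPKM (SD, n = 4), a log2 fold of 0.48 with a 95% interval of 0.28 to 0.69 and an adjusted p of 0.318 in limma. In WT the log2 fold of Pyurf was -0.10. The difference between the genotypes, 0.59, had an adjusted p of 0.999.

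Pcbd2, a dehydratase that recycles the tetrahydrobiopterin cofactor, read 10.5, 10.6, 12.7 and 12.9 FPKM on water and 16.01, 15.45, 16.08 and 19.58 FPKM on fructose, without overlap. Car2, the carbonic anhydrase abundant in oligodendrocytes, read 115 to 125 FPKM on water and 142 to 183 FPKM on fructose, also without overlap (log2 fold 0.43, 95% interval 0.21 to 0.65).

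The tetraspanin Cd63, a membrane protein of late endosomes and exosomes, had a log2 fold of 0.58, but its groups overlapped, with water replicate 1 at 8.59 FPKM above fructose replicate 2 at 8.39 FPKM. Npc2, which carries cholesterol out of lysosomes, had a log2 fold of 0.37 without overlap, at 14.3 to 17.5 FPKM on water and 18.2 to 25.4 FPKM on fructose. Other leading genes on this side were Ptpla (log2 fold 0.38), an enzyme of very-long-chain fatty acid elongation now named Hacd1, the nucleotide-sugar hydrolase Nudt14 (0.35), the thioredoxin-like Txndc17 (0.25), Nkain4 (0.42), whose product associates with the sodium pump, and Oaz1 (0.58), the antizyme that limits polyamine synthesis. Gng5, a G-protein gamma subunit, had the highest fold of these leading genes (0.74) on the lowest level, 0.76 to 1.61 FPKM on water and 1.58 to 3.86 FPKM on fructose, and its groups overlapped. Ribosomal protein genes, Oaz1 and Gng5 have near-identical processed copies elsewhere in the genome, and the sources used here do not say how reads were shared among copies.

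On the lower side the genes of smallest unadjusted p included synaptic proteins, a potassium channel and RNA-processing factors. Sorcs3 (chromosome 19, 48206025 to 48805505, plus strand), a sorting receptor of the VPS10 family found at hippocampal synapses, read 9.37, 9.33, 8.94 and 8.37 FPKM on water and 7.36, 8.01, 6.45 and 6.44 FPKM on fructose. The groups did not overlap, and the mean was 9.0 ± 0.47 FPKM on water and 7.06 ± 0.76 FPKM on fructose (SD, n = 4). The log2 fold was -0.31 with a 95% interval of -0.46 to -0.17 and an adjusted p of 0.318 in limma.

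Htr1b (chromosome 9, 81628291 to 81633828, minus strand), the presynaptic serotonin receptor 1B, read 5.23, 5.88, 4.46 and 3.99 FPKM on water and 2.72, 3.87, 2.95 and 3.11 FPKM on fructose. Its log2 fold of -0.50 was the most negative of the leading genes, with a 95% interval of -0.76 to -0.24. Tnik, a kinase of the postsynaptic density, read 18.4, 20.9, 18.5 and 18.9 FPKM on water and 13.5, 16.1, 14.2 and 14.1 FPKM on fructose, without overlap. Kcnma1, the pore of the large-conductance calcium-activated potassium channel, read 28.6, 31.6, 33.7 and 28.8 FPKM on water and 24.5, 27.6, 24.9 and 20.8 FPKM on fructose, with fructose replicate 4 the lowest.

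The other leading genes on this side, also without overlap between the groups, were Ddx46 (log2 fold -0.45), an RNA helicase of the early spliceosome, Rbm25 (-0.30), a splicing regulator, Thrb (-0.42), a thyroid hormone receptor, Arid4a (-0.27), a chromatin protein, Dmxl2 (-0.29), a synaptic vesicle protein that regulates the vacuolar proton pump, Bicd1 (-0.32), a dynein adaptor, and Syt14 (-0.34), a synaptotagmin relative. An entry that joins the name of Kctd16, an auxiliary subunit of GABA-B receptors, with that of a neighbouring unnamed transcript had a log2 fold of -0.38. All 23 leading genes named here kept their direction in every alternative fit, which their choice by smallest p in these same libraries made likely.

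**Figure D1:**
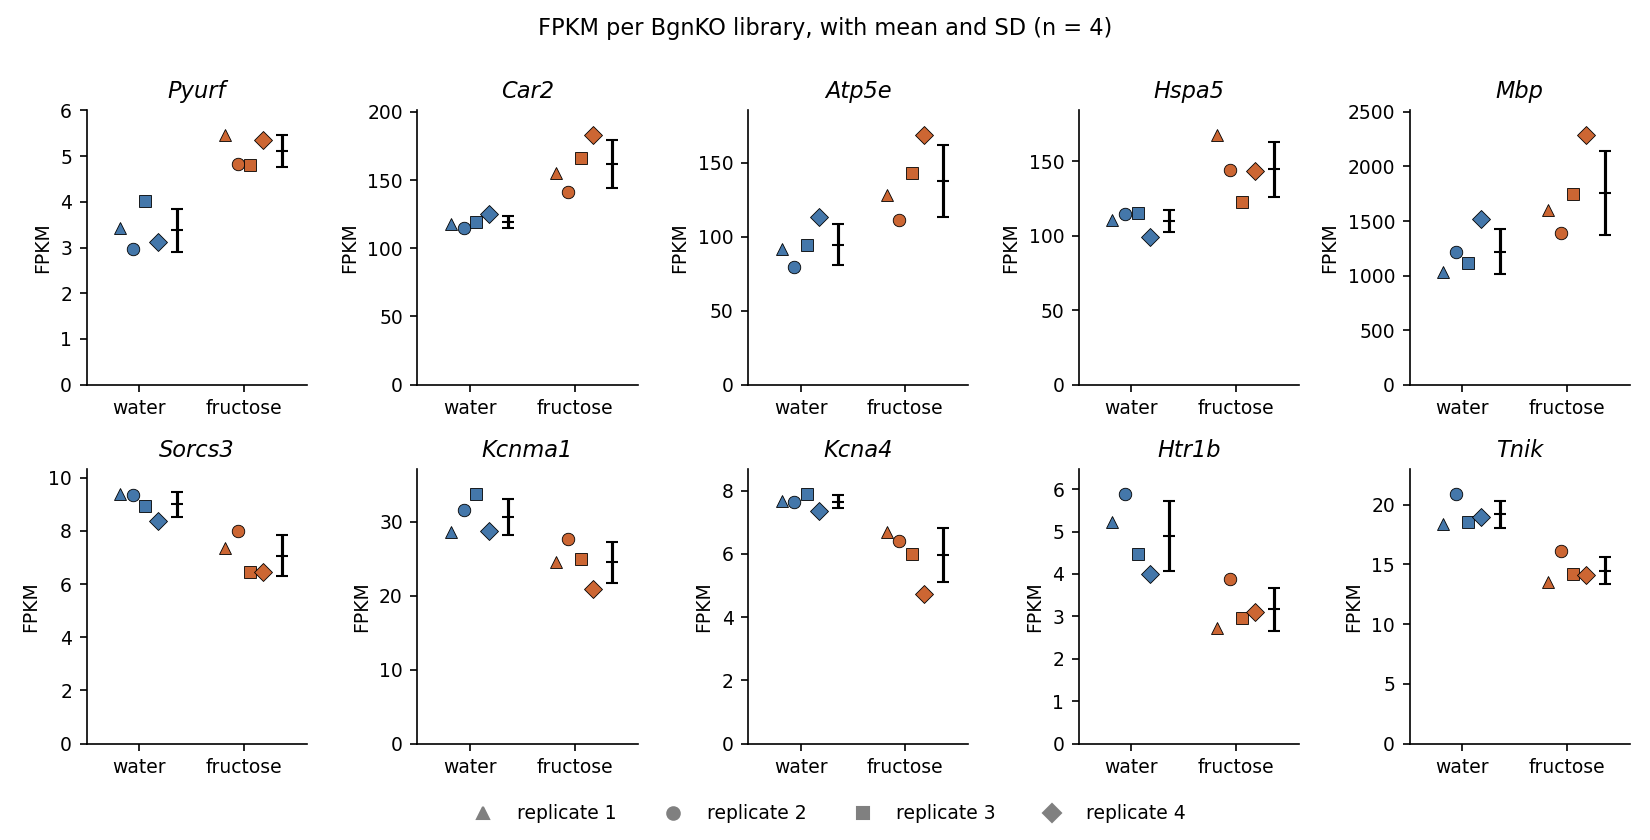
FPKM (vertical axes, each from 0) of 10 genes in the 4 BgnKO water (blue) and 4 BgnKO fructose (orange) libraries, with the symbol giving the replicate number and the bar the mean and SD. The groups do not overlap for Pyurf, Car2, Hspa5, Sorcs3, Kcnma1, Kcna4, Htr1b and Tnik, and they overlap for Atp5e and Mbp.

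Chaperones of the endoplasmic reticulum stood among the genes whose libraries separated. The unfolded protein response raises them when misfolded protein builds up in the endoplasmic reticulum, through the sensors Ire1, Perk and Atf6 and the transcription factor Xbp1. Atf6 is known to act with NF-Y at the endoplasmic reticulum stress element, a CCAAT box followed at a fixed distance by CCACG. Written as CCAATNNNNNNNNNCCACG and searched on both strands in the 250 bases upstream of each RefSeq start (GRCm38.p6), it was present in 7 of the 23 list members tested that had such a sequence (30.4%). It was present in 12 of the 9047 tested genes matched by symbol (0.133%) and in 33 of all 27025 upstream windows (0.122%). The 7 were Hspa5, Calr, Hsp90b1, Canx, Pdia6, Dnajc3 and Creld2. The list holds genes known for this response or for heat shock, so these shares describe the list and do not bear on fructose. A second motif, TGACGTG, whose end can overlap the CCACG box read on the opposite strand, was present in 1 of the 23 members (4.35%) and in 2.34% of the tested genes. The upstream windows of the 3 carriers whose fructose and water libraries did not overlap are shown 5′ to 3′ on the gene's strand, with both boxes of the element in capitals. The windows are chr2:34771840-34772089 for Hspa5, chr15:88819396-88819645 for Creld2 and chr12:17266339-17266588 for Pdia6, all on the plus strand. The element lies at -65 to -47 from the start in Hspa5, at -126 to -108 in Creld2, where it reads on the opposite strand, and at -98 to -80 in Pdia6.
Hspa5: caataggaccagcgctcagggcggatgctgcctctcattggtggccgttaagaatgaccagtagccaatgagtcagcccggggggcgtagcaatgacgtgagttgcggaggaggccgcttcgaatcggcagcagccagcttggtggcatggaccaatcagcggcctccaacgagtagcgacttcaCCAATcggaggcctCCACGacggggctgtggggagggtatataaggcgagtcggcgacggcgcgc
Creld2: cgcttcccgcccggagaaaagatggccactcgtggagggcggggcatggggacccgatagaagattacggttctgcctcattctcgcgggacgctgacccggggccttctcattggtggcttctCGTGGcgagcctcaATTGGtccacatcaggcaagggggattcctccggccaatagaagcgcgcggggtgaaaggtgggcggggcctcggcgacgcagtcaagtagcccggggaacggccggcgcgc
Pdia6: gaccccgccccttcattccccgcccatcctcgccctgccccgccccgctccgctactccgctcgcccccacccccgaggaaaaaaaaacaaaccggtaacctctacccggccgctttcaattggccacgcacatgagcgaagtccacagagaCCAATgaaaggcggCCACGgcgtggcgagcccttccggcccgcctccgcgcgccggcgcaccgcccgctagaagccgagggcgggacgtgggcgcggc

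Hspa5, the chaperone BiP and the main folding sensor of the endoplasmic reticulum, read 110, 114, 115 and 99.1 FPKM on water and 168, 144, 123 and 144 FPKM on fructose. All fructose libraries lay above all water libraries, and the mean was 110 ± 7.45 FPKM on water and 145 ± 18.4 FPKM on fructose (SD, n = 4). The log2 fold was 0.39 with a 95% interval of 0.15 to 0.62, and the adjusted p was 0.318 in limma. Sdf2l1, a cofactor of BiP, read 7.15, 6.54, 8.14 and 5.96 FPKM on water and 11.9, 8.80, 8.64 and 10.7 FPKM on fructose (log2 fold 0.47). Xbp1 itself read 27.6 to 29.6 FPKM on water and 32.3 to 37.9 FPKM on fructose (log2 fold 0.28). Creld2, a secreted stress-responsive protein, read 7.79 to 8.33 FPKM on water and 8.85 to 11.1 FPKM on fructose (log2 fold 0.25). These 3 genes also separated without overlap.

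The rest of the list was mixed. Of its 27 tested members, with 0 past the adjusted threshold, 19 lay higher on fructose and 8 lower, against 51.8% and 48.2% of all genes. The unadjusted p was under 0.05 for 4, all on the higher side, against 6.34% of all genes on that side. The groups did not overlap for 5, also all on that side, against 1.88% of all genes. The list median was 0.09, against 0.01 over all genes tested, and 0.14 without fructose replicate 4. In WT the median was 0.08, with Hspa5 at a log2 fold of 0.17 and Creld2 at 0.18, so the difference between genotypes had a median of 0.02 over the list. Among the other carriers of the element, named after their values were seen, Pdia6 had a log2 fold of 0.22, Calr 0.19, Dnajc3 0.20, Hsp90b1 0.09 and Canx -0.02. The 5 tested genes outside the list with the element had log2 folds from -0.08 to 0.04.

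Genes of the cytosolic ribosome and of oxidative phosphorylation lay mostly higher on fructose, by small amounts. These proteins make up the translation machinery and the mitochondrial complexes that pass electrons to oxygen and make ATP. Of 79 cytosolic ribosomal protein genes looked up, 71 were found by name and 58 passed the filter of 1 FPKM. Of these 58, 1 read 0 in at least 1 of the 16 libraries. Among the 58 tested, 51 lay higher and 7 lower, with a median log2 fold of 0.21, where 51.8% of all genes tested lay higher. On the higher side 19 were at an unadjusted p under 0.05, against 6.34% of all genes, and on the lower side 0. None was past an adjusted p of 0.05 in limma. Rpl39, a small protein of the large subunit, read 10.5, 10.2, 12.3 and 11.2 FPKM on water and 19.3, 13.0, 21.5 and 16.8 FPKM on fructose, without overlap (log2 fold 0.61). Rps9, of the small subunit, had a log2 fold of 0.42, and its groups overlapped. By library, the list median relative to the water mean was -0.13 to 0.16 on water and 0.06 to 0.37 on fructose, with water replicate 4 above fructose replicate 2.

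Complexes III, IV and V gave 34 of 37 tested genes on the higher side, with a median of 0.16 and 13 at an unadjusted p under 0.05, all on that side. Of all genes tested, 51.8% lay higher and 6.34% were higher at that level. Atp5e, a subunit of the ATP synthase, read 91.5, 79.7, 94.6 and 113 FPKM on water and 128, 111, 143 and 169 FPKM on fructose, with 1 overlapping pair (log2 fold 0.53). Complex I, where electrons enter from NADH, had 32 of 36 genes higher, a median of 0.15 and 8 at an unadjusted p under 0.05, all on that side. Ndufa4, listed there although it is now assigned to complex IV, read 241 to 268 FPKM on water and 280 to 319 FPKM on fructose, without overlap (log2 fold 0.24). Mitochondrial ribosomal proteins (53 of 67 higher, median 0.07) and proteasome subunits (22 of 33 higher, median 0.07) differed less. Mrpl12 had a log2 fold of 0.38 and Mrpl47 one of -0.23, while the proteasome subunit Psmb3 had 0.34 without overlap. In WT, the medians were 0.12 for cytosolic ribosomal proteins, 0.08 for complex I and 0.03 for complexes III to V.

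Ion channels and neurotransmitter receptors lay mostly lower on fructose. Potassium channels, which set resting potential and repolarise neurons, had 21 of 28 tested genes lower and 7 higher, and a median of -0.16, where 48.2% of all genes tested lay lower. Of them, 10 were at an unadjusted p under 0.05, all on the lower side (6.55% of all genes), and 7 were lower in every fructose library than in any water library (2.11% of all genes). Kcna4, a rapidly inactivating channel of axons, read 7.68, 7.65, 7.88 and 7.37 FPKM on water and 6.68, 6.41, 5.98 and 4.75 FPKM on fructose (log2 fold -0.32). Kcnj3, a channel opened by G proteins downstream of GABA-B and serotonin receptors, read 34.5, 43.3, 35.8 and 34.3 FPKM on water and 25.4, 33.8, 28.3 and 20.3 FPKM on fructose (log2 fold -0.46). Neither gene's groups overlapped, and fructose replicate 4 was the lowest library for both. Without that library the log2 folds were -0.23 and -0.34.

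Voltage-gated calcium and sodium channels, which fire action potentials and admit calcium, had 21 of 24 genes lower, a median of -0.18 and 7 at an unadjusted p under 0.05, none of them higher. Of all genes tested, 48.2% lay lower and 6.55% were lower at that level. Scn8a, the sodium channel of the axon initial segment, read 32.9 to 38.6 FPKM on water and 24.9 to 33.5 FPKM on fructose (log2 fold -0.29), and the calcium channel subunit Cacnb4 had a log2 fold of -0.40. Ionotropic glutamate receptors were lower for 13 of 16 genes (median -0.19), including the NMDA receptor subunit Grin2b (-0.39, 31.7 to 40.4 FPKM on water and 21.1 to 35.8 FPKM on fructose) and the AMPA receptor subunit Gria2 (-0.31). GABA-A receptors, the chloride channels of fast inhibition, were lower for 9 of 11 genes (median -0.16). Their member Gabrg3 had a log2 fold of -0.41. Metabotropic receptors were lower for 18 of 23 genes (median -0.18), with Htr1b described above and the glutamate receptor Grm5 at -0.32. None of these members was past an adjusted p of 0.05 in limma.

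Presynaptic release genes (20 of 29 lower, median -0.07) included Rims2, an active-zone scaffold that read 19.2 to 20.8 FPKM on water and 16.2 to 18.2 FPKM on fructose (log2 fold -0.21). Splicing factors (24 of 33 lower, median -0.06) included Luc7l3 at -0.31 beside Rbm25. BgnKO fructose replicate 4 carried much of the lower medians. Its list medians relative to the water mean were -0.37 for potassium channels, -0.37 for calcium and sodium channels, -0.38 for glutamate receptors and -0.34 for presynaptic genes, against -0.16 to 0.03 in the other 3 fructose libraries. Without it, the medians were -0.09 for potassium channels, -0.11 for calcium and sodium channels, -0.11 for glutamate receptors, -0.10 for metabotropic receptors, -0.01 for presynaptic genes and -0.02 for splicing factors. In WT the same lists had medians of -0.03, 0.03, -0.04, 0.02, -0.04 and 0.07, and 0 of their members passed the test of the difference between genotypes.

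**Figure D2:**
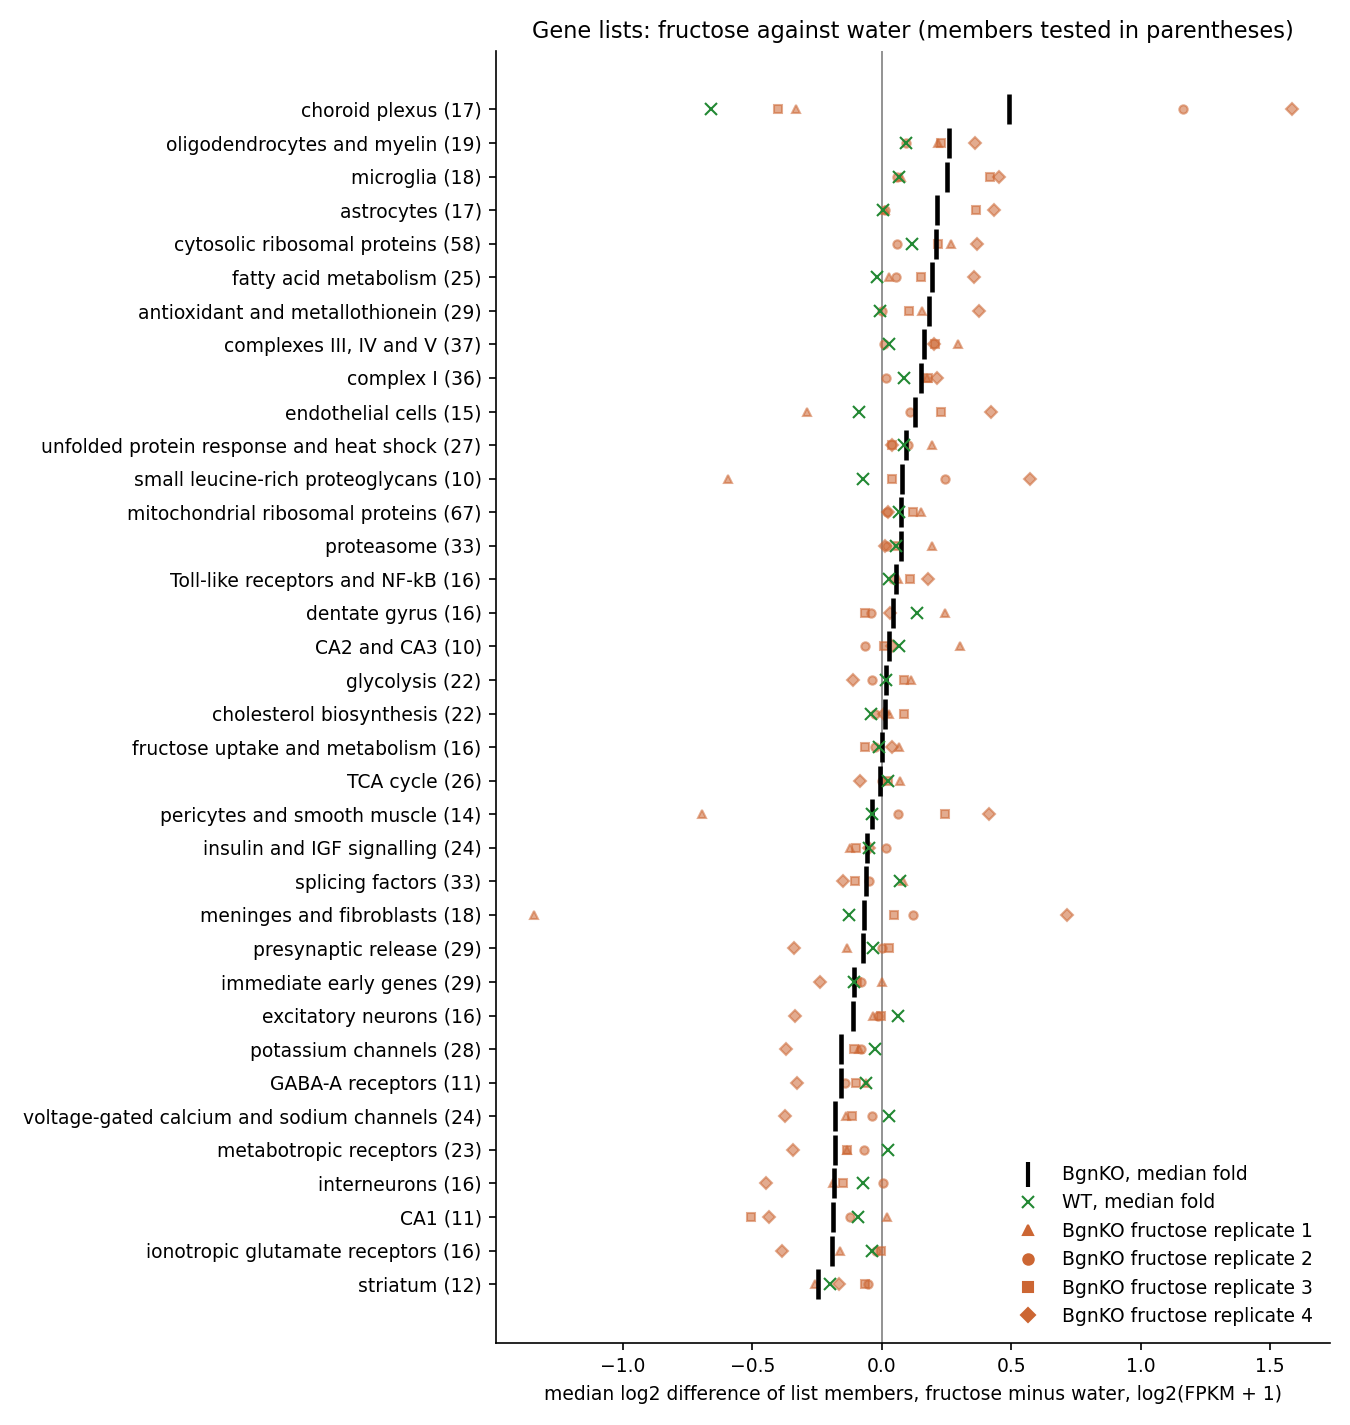
Median log2 difference (horizontal axis, fructose minus water on log2(FPKM + 1)) of the members of each gene list described (vertical axis, with the number tested), as the median fold in BgnKO (black bar) and WT (green cross) and for each BgnKO fructose library against the BgnKO water mean (orange). Glial, ribosomal and respiratory lists lie above 0 and channel, receptor and CA1 lists below it, with replicate 4 at the far end for many lists and a wide spread for choroid plexus and meninges.

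Markers of glia lay higher on fructose in BgnKO, and markers of CA1 neurons and interneurons mostly lower. In bulk tissue, fewer cells of a type and less RNA per cell cannot be told apart. Oligodendrocyte and myelin genes lay higher for 19 of 19 tested, with a median of 0.26, where 51.8% of all genes lay higher. Of them, 5 were at an unadjusted p under 0.05 (6.34% of all genes on the higher side). The groups did not overlap for 2 (1.88% of all genes on that side). The summed level of the list was 2415 to 2669 FPKM in the water libraries and 3113 to 4580 FPKM in the fructose libraries, without overlap. Mbp was a large part of this sum, which also held Enpp2, a member of the choroid plexus list too. By list median the margin was small, with water replicate 2 at 0.078 and fructose replicate 2 at 0.094. Mbp, myelin basic protein, read 1031, 1216, 1118 and 1514 FPKM on water and 1602, 1387, 1749 and 2287 FPKM on fructose, with water replicate 4 above fructose replicate 2 (log2 fold 0.52, 0.38 without fructose replicate 4). Mog, a protein of the outer myelin surface, read 21.8 to 27.5 FPKM on water and 28.5 to 42.5 FPKM on fructose, without overlap (log2 fold 0.40). Cnp and Cldn11, 2 further myelin proteins, had log2 folds of 0.31 and 0.36 and overlapped.

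Microglial markers lay higher for 18 of 18 genes (median 0.25, 3 at an unadjusted p under 0.05). Astrocyte markers did so for 17 of 17 (median 0.21, 4 at that level, and 0.14 without fructose replicate 4). Over all genes tested, 51.8% lay higher and 6.34% were higher at that level. In both lists the groups overlapped for every member. Tyrobp, an adaptor of microglial receptors, read 16.2, 13.5, 15.5 and 31.7 FPKM on water and 24.8, 24.2, 32.1 and 40.0 FPKM on fructose. S100b, a calcium-binding protein of astrocytes, read 61.7, 62.9, 66.7 and 85.7 FPKM on water and 89.9, 75.6, 106 and 110 FPKM on fructose. Gfap, the astrocyte filament protein, had a log2 fold of 0.38 at 104 to 156 FPKM on water and 122 to 199 FPKM on fructose. Water replicate 4 lay with the fructose libraries for these cells: its median relative to the water mean was 0.42 for microglia and 0.32 for astrocytes, against -0.30 to -0.01 and -0.13 to -0.08 in the other water libraries. The fructose libraries had medians of 0.06 to 0.45 and 0.01 to 0.44. In WT the glial medians were 0.09 for oligodendrocytes, 0.07 for microglia and 0.00 for astrocytes.

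Neuronal markers mostly went the other way or were split, except that those of the dentate gyrus lay slightly higher. General markers of excitatory neurons were lower for 10 of 16 genes (median -0.11, and -0.02 without fructose replicate 4). CA1 markers were lower for 10 of 11 genes (median -0.19), including Wfs1, an endoplasmic reticulum membrane protein, which read 58.8 to 65.2 FPKM on water and 57.4, 57.6, 44.0 and 37.8 FPKM on fructose (log2 fold -0.37). By CA1 list median the drinks overlapped, with water replicate 4 at -0.25, below fructose replicates 1 and 2 at 0.02 and -0.12. Interneuron markers were lower for 14 of 16 genes (median -0.18, and -0.07 without fructose replicate 4), with Gad2, which makes GABA, at 34.3 to 67.3 FPKM on water and 32.8 to 43.3 FPKM on fructose (log2 fold -0.46) and the transcription factor Dlx1 at -0.47. Striatal markers, which can enter with neighbouring tissue, were lower for 8 of 12 (median -0.25, and -0.11 in replicates 2 to 4 alone), including the opioid precursor Penk (-0.43). The other 4 lay higher, among them Ppp1r1b (0.38). The summed striatal level overlapped, at 179 to 204 FPKM on water and 172 to 221 FPKM on fructose. Markers of CA2 and CA3 were split (6 of 10 higher, median 0.03), with Bok at 0.51 and Iyd at -0.33. Dentate gyrus markers were higher for 11 of 16 (median 0.04), with Plk5 at 0.39 and Ntng1 at -0.22.

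Neighbouring tissues varied between libraries far more than between drinks. Choroid plexus, which secretes cerebrospinal fluid and makes transthyretin, had summed markers of 1060 to 7076 FPKM on water and 3033 to 10539 FPKM on fructose. Ttr read 6127, 3697, 4436 and 770 FPKM on water and 3024, 6074, 2575 and 8924 FPKM on fructose (log2 fold 0.61, 95% interval -1.15 to 2.37). The list median was 0.49, 0.15 without fructose replicate 4 and 1.03 in replicates 2 to 4, and it was -0.66 in WT. Markers of meninges and fibroblasts had a summed level of 1162 to 2222 FPKM on water and 392 to 3434 FPKM on fructose, with medians of -1.34 in fructose replicate 1 and 0.72 in replicate 4. Pericyte and smooth muscle markers followed a similar order (-0.70 and 0.41). Endothelial markers were higher for 15 of 15 genes with a median of 0.13, which was 0.04 without fructose replicate 4, where fructose replicate 1 lay at -0.29. Fructose replicate 4 was thus the highest of the fructose libraries for all of these lists and the lowest for channels, and the part of this makeup in the results above was not tested.

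**Figure D3:**
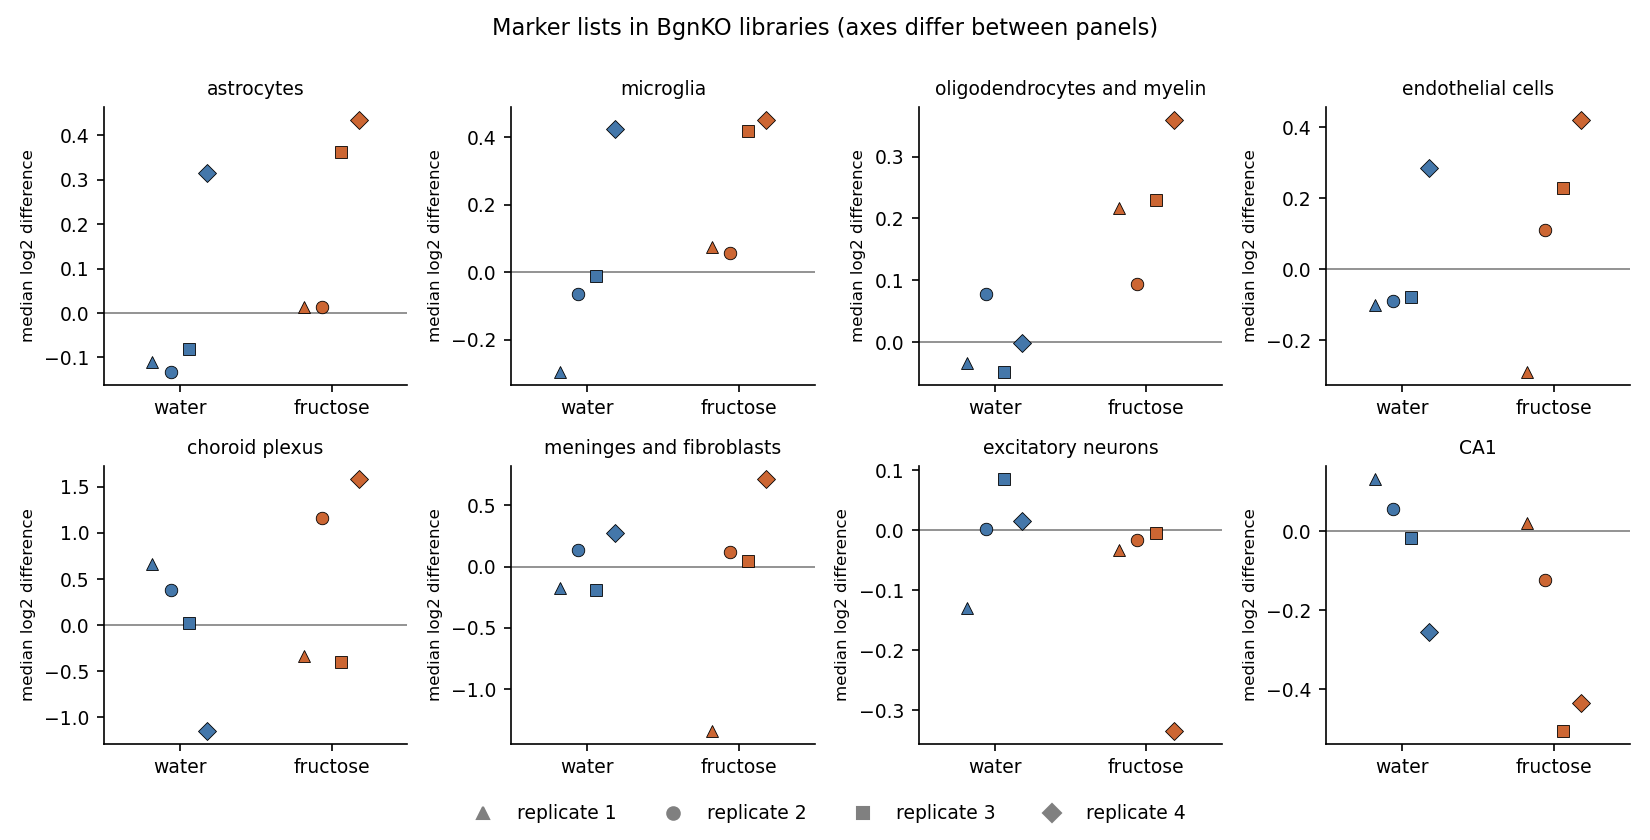
Median log2 difference of each marker list from the BgnKO water mean (vertical axes, scales differ) in each BgnKO water (blue) and fructose (orange) library, with the symbol giving the replicate number. Oligodendrocyte markers separate the drinks by a small margin, between water replicate 2 at 0.078 and fructose replicate 2 at 0.094. Water replicate 4 lies among the fructose libraries for astrocytes and microglia, and choroid plexus spans -1.15 to 1.58.

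Genes that handle fructose, glucose and insulin showed no common direction. Of 16 tested genes of fructose uptake and metabolism 8 lay higher and 8 lower, with a median of 0.00. Slc2a5, the main fructose transporter, read 2.17, 1.19, 1.68 and 1.82 FPKM on water and 1.72, 1.30, 1.36 and 2.23 FPKM on fructose, with a log2 fold of -0.03 and a 95% interval of -0.32 to 0.25. Slc2a8, an intracellular hexose transporter, had a log2 fold of 0.17, and Slc2a13, the proton myo-inositol carrier, one of -0.30. Slc2a1, the glucose transporter of the blood-brain barrier, read 40.5 to 61.1 FPKM on water and 47.2 to 71.6 FPKM on fructose (0.28, 95% interval -0.08 to 0.63). Glycolysis (13 of 22 higher, median 0.02) and the TCA cycle (12 of 26 higher, median -0.01) were also split. Txnip, a glucose-induced inhibitor of thioredoxin, had a log2 fold of 0.18 that was 0.00 without fructose replicate 4.

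Insulin and IGF signalling genes were lower for 15 of 24 (median -0.06), with Gsk3b, the kinase that insulin restrains, at -0.26, Mtor at -0.16, Igf1 at -0.07 and Igf1r at 0.04. Fatty acid metabolism gave 20 of 25 genes higher with a median of 0.20 (0.11 without fructose replicate 4). There, Etfb, which passes electrons from fatty acid oxidation to the respiratory chain, read 29.2 to 32.2 FPKM on water and 34.5 to 46.9 FPKM on fructose, and Acadm, which starts the oxidation of medium-chain fatty acids, read 15.9 to 17.5 and 17.9 to 22.8 FPKM. Both separated without overlap, with log2 folds of 0.31 and 0.22. Cholesterol synthesis was split (14 of 22 higher, median 0.01). Antioxidant genes were higher for 23 of 29 with a median of 0.18 (0.11 without fructose replicate 4). They included the quinone reductase Nqo1 (0.32) and the peroxidase Gpx1 (0.20), both with overlap.

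Relatives of biglycan and genes of neuronal activity did not separate either. Of 10 tested small leucine-rich proteoglycans 5 lay higher and 5 lower. Decorin (Dcn) read 42.2, 49.5, 42.1 and 42.3 FPKM on water and 23.2, 47.4, 46.3 and 42.5 FPKM on fructose. Fibromodulin (Fmod) read 10.4, 21.8, 11.7 and 22.5 FPKM on water and 1.70, 19.3, 16.2 and 28.8 FPKM on fructose. For both the lowest library was fructose replicate 1, which was also lowest for meningeal markers, and in replicates 2 to 4 the log2 folds turned from -0.19 to 0.03 and from -0.37 to 0.20. Toll-like receptor and NF-kB genes were higher for 13 of 16 with a median of 0.05, and the adaptor Myd88 had a log2 fold of 0.17. Immediate early genes, which neurons switch on with activity, were lower for 20 of 29 (median -0.11 in BgnKO and -0.11 in WT, and -0.05 in BgnKO without fructose replicate 4). Egr1 read 47.3, 48.6, 66.1 and 50.9 FPKM on water and 32.5, 47.3, 40.7 and 33.5 FPKM on fructose (log2 fold -0.46), and Fos -0.11 with a 95% interval of -0.79 to 0.56. The neurotrophin Bdnf (-0.04) and the glucocorticoid-induced Fkbp5 (-0.03) had intervals of -0.36 to 0.29 and -0.32 to 0.26.

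Over all genes, the direction of the difference went with transcript length. When 12059 genes with an annotated transcript were cut into 10 equal groups by length, the group with the shortest transcripts (median 985 bases) had a median log2 fold of 0.13 and 79.8% of its genes higher on fructose. The group with the longest (median 8386.5 bases) had a median of -0.10 and 23.8% higher. The 8 groups between them lay in order. Spearman's rho over genes was -0.409, a description over genes that share the same 8 libraries. The ribosomal, complex I and complex III to V lists had median transcripts of 910, 944.5 and 765 bases, and potassium channels, glutamate receptors and calcium and sodium channels 5344, 5633 and 7681 bases, so the lists that lay higher were also the short ones. Microglial (1630 bases), antioxidant (1569 bases), proteasome (1581 bases) and mitochondrial ribosomal (1398 bases) genes also lay mostly higher and were fairly short. Myelin (2571 bases), astrocyte (2842 bases) and fatty acid (3150 bases) genes lay mostly higher at intermediate lengths. Interneuron (2277.5 bases) and splicing factor (2847 bases) genes lay mostly lower at intermediate lengths. By library, the gap between the shortest and longest group relative to the water mean was 0.00, -0.11, 0.04 and 0.09 in water replicates 1 to 4 and 0.27, 0.09, 0.28 and 0.34 in fructose replicates 1 to 4. All fructose libraries lay above all water libraries, replicate 2 by a small margin. In WT the groups ran from 0.06 to -0.04. The WT fructose libraries lay at 0.08, 0.04, 0.25 and 0.01 and the WT water libraries at -0.05 to 0.05, so 2 of the 4 fructose libraries lay above the highest water library. The part of length in the gene and list results was not tested.

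**Figure D4:**
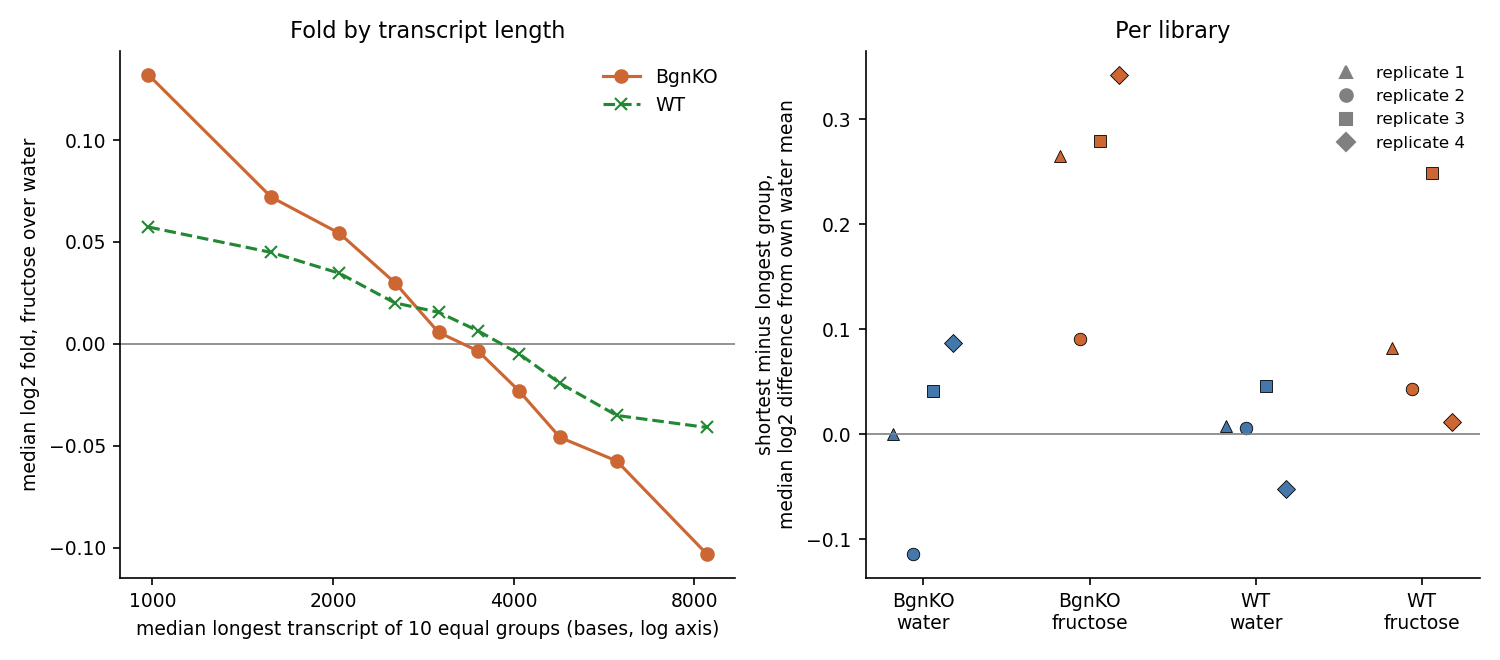
Left, median log2 fold of fructose over water (vertical axis) for 10 equal groups of genes ordered by longest annotated transcript (horizontal axis, log scale), in BgnKO (orange) and WT (green). Right, gap between the shortest and longest group in each library relative to the water mean of its genotype, where the 4 BgnKO fructose libraries lie at 0.09 to 0.34 and the BgnKO water libraries at -0.11 to 0.09.

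Set beside WT, the typical difference in BgnKO was larger, though the count of genes that stood out in BgnKO depended on single libraries. Over all genes the log2 folds of the genotypes had a Spearman rho of 0.28, and without Camk2a a Pearson r of 0.18, given as a description, since genes are not independent replicates. The median absolute log2 fold was 0.0998 in BgnKO and 0.0577 in WT, and 263 genes (2.08%) had an unadjusted p under 0.05 in WT. In BgnKO that count was 1630 (12.9%), and 1057 with only the 8 BgnKO libraries in the fit. It was 824 without BgnKO fructose replicate 4 and 809 without BgnKO water replicate 2. WT libraries separated entirely for 138 higher (1.09%) and 99 lower genes (0.783%), and 1 gene (0.00791%), on the lower side, was past an adjusted p of 0.05 in limma. Of the 802 genes higher in BgnKO at an unadjusted p under 0.05, 605 (75.4%) also lay higher in WT, with medians of 0.26 and 0.05. Of the 828 lower genes, 634 (76.6%) also lay lower in WT, with medians of -0.23 and -0.05. Only 26 and 30 of them were also at an unadjusted p under 0.05 in WT in the same direction. The share of all genes that lay in the same direction in both genotypes is not given. How far 75.4% and 76.6% exceed that share is therefore not known. The 2 comparisons share no library, but libraries of the same number can deviate together across genotypes. Fructose replicate 1 had a median of -1.34 in BgnKO and -1.13 in WT for meningeal markers. For pericyte and smooth muscle markers it had -0.70 and -0.39, each relative to the water mean of its genotype. The part of such deviations in the shared direction was not tested. In limma's test of the difference of the fructose effect between genotypes 368 genes (2.91%) had an unadjusted p under 0.05 and 1 (0.00791%) was past an adjusted p of 0.05.

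The gene past both thresholds was Camk2a, the alpha subunit of the calcium/calmodulin kinase of excitatory synapses (chromosome 18, 60925618 to 60988152, plus strand). It read 781, 991, 1203 and 1657 FPKM in BgnKO water, 1256, 1013, 1671 and 1505 FPKM in BgnKO fructose and 992, 1558, 1593 and 1346 FPKM in WT water, and it was listed at 0 in all 4 WT fructose libraries. Within BgnKO its groups overlapped (log2 fold 0.26, 95% interval -0.17 to 0.70, adjusted p = 0.606 in limma). The adjusted p of the difference, 2.98e-12, thus rests on the WT fructose values of 0, which can be failed estimates, and no fold is given against them. Among the other genes of smallest unadjusted p in that test were Mgat1, a Golgi glycosyltransferase (log2 fold 0.23 in BgnKO and -0.06 in WT), Rbm5, a splicing factor (-0.20 and 0.11), and Sorcs3 (-0.31 and 0.01), none with an adjusted p under 0.05.

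**Figure D5:**
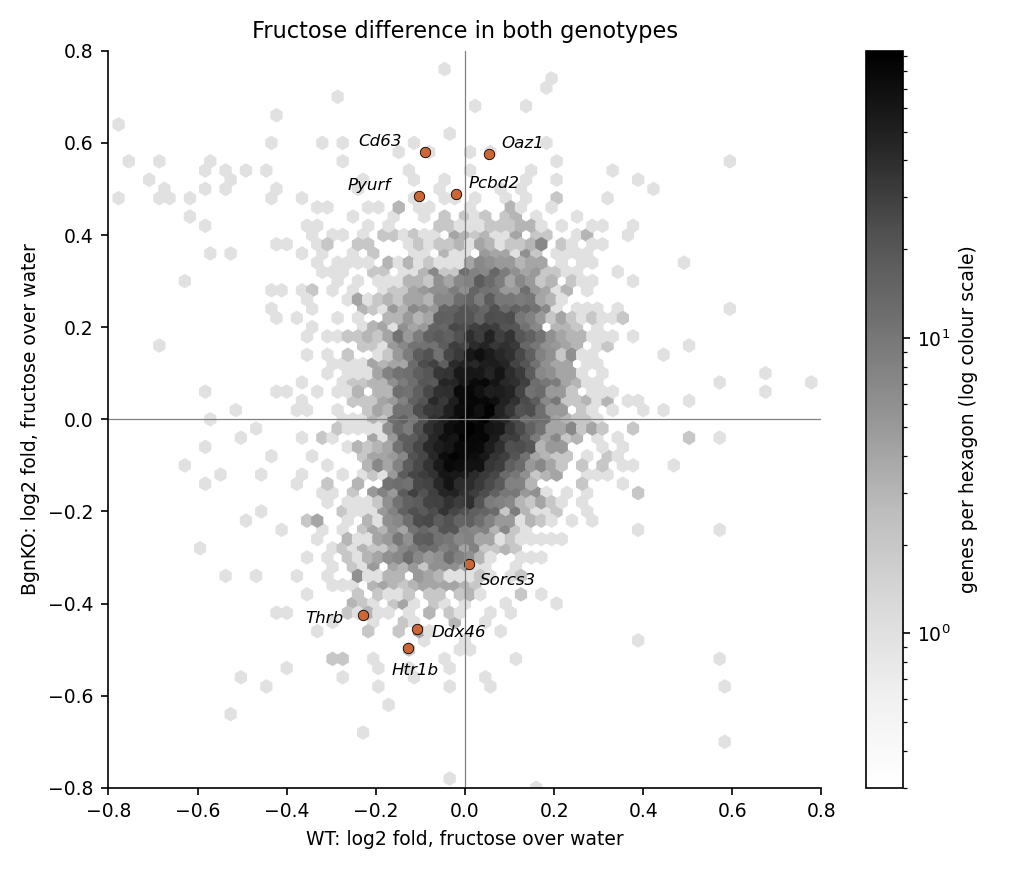
Log2 fold of fructose over water in WT (horizontal axis) and BgnKO (vertical axis) for 12622 of the 12648 genes tested, as counts per hexagon on a log colour scale, with 8 genes named. The cloud is taller than it is wide, and 26 genes beyond 0.8 on either axis, Camk2a among them, are not drawn.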

How the data were processed

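The values are FPKM that the authors deposited as 1 table of 27670 loci by 16 libraries. Per the labels' protocols, polyadenylated RNA was selected and complementary DNA made with random hexamers. The submitters' processing notes name TopHat, Bowtie, Cufflinks, Cuffdiff and the build mm10. The sources used here do not give annotation, strand setting or read depth, so no counting error is given. Loci of 1 name were summed (711 names), names that join several genes were kept as 1 entry (523 tested), and 4269 loci without a name were left out. A library had 12343 to 12885 named genes at 1 FPKM or more.

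Tests used limma 3.58.1 (R 4.3.3), eBayes with trend, on log2(FPKM + 1), 4 group means over all 16 libraries, and Benjamini-Hochberg adjustment with a threshold of 0.05. A log2 fold on this scale understates differences of low genes. The same code was tested on simulated data. Genes were named as the 12 a side of smallest unadjusted p, up to 4 of smallest p a list, smaller sets from the fit with a term for replicate 1 and from the genotype difference, and 15 fixed genes, of which 1 was not found. Some genes that this rule names are not reported here. Members and lists were chosen with earlier results of these data known. Positions and transcript lengths are from GENCODE M21 (95.3% of genes matched) and upstream sequences from RefSeq GRCm38.p6. Alternatives changed the pseudocount, filter, scaling, samples and covariates, and left out each library in turn. Same-numbered BgnKO libraries deviated together (correlations 0.612, 0.377, 0.214 and 0.197 for replicates 1 to 4), but from replicates 2 to 4 alone the correlations were 0.314, -0.0424 and 0.136.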

Additional observations from a re-analysis of the deposited data

Results flagged for a closer look

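In 12 of 368 groups of 4 libraries, 1 library stood far from the others by Dixon's criterion, which chance does in about 1 of 20 groups. In BgnKO fructose, replicate 4 was the highest for Pcbd2 (19.6 FPKM, the next 16.1) and Abcc9 (2.66, the next 1.71). Replicate 2 was the highest there for Penk (32.0, the next 24.9) and the lowest for Cnp (89.7, the next 114), and replicate 1 the highest for Nr4a1 (16.5, the next 14.5). In BgnKO water, replicate 4 was the highest for Tmem119 (9.94, the next 6.93), Tyrobp (31.7, the next 16.2) and Notch3 (2.93, the next 1.98). Water replicate 1 was the lowest for Unc13a (37.1 FPKM, the next 42.9) and Bgn (4.46, the next 7.19). Water replicate 3 was the highest for Myd88 (2.78, the next 2.33) and water replicate 2 for Dcn (49.5, the next 42.3).

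The difference of the fructose effect between BgnKO and WT had an adjusted p of 2.98e-12 in limma for Camk2a, which was listed at 0 in the 4 WT fructose libraries.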

How the results depend on the processing

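0 genes were past an adjusted p of 0.05 in BgnKO in limma under all 28 alternatives. The count at an unadjusted p under 0.05 was 1630. It was 3442 with the replicate block, which changed no call, 3177 with a term for replicate 1, 1057 with only the 8 BgnKO libraries, and 809 to 2323 when 1 library was left out. In alternatives chosen after seeing the data it was 927 in replicates 2 to 4 without BgnKO fructose replicate 4, and, with a term for replicate 1, 2045 without that library and 2095 with only the 8 BgnKO libraries. In replicates 2 to 4, with or without that library, 3 genes passed in WT and 2 in the difference between genotypes, against 1 and 1 over all replicates, which added Scoc to both and BC056474 to WT (named after their values were seen). Of 183 genes recomputed, 167 kept their sign in every alternative. In replicates 2 to 4 the log2 fold turned positive for Slc22a6 (0.051), Col1a1 (0.065), Fmod (0.20), Dcn (0.026), Igf1 (0.014) and Slc2a5 (0.028). There, without fructose replicate 4, it was also positive for Dcn (0.072), Igf1 (0.064) and Canx (0.0074). With a term for replicate 1 and without that library it turned negative for Foxd1 (-0.033) and Lum (-0.087) and positive for Bdnf (0.029) and Canx (0.010). Leaving out 1 library gave ranges across 0 for Slc22a6 (-0.55 to 0.11), Col1a1 (-0.53 to 0.14), Fmod (-0.77 to 0.38), Dcn (-0.29 to 0.045), Lum (-0.11 to 0.52), Foxd1 (-0.037 to 0.31), Bgn (-0.18 to 0.064), Igf1r (-0.0022 to 0.10), Bdnf (-0.18 to 0.060), Slc2a5 (-0.14 to 0.044), Fkbp5 (-0.15 to 0.061), Fos (-0.31 to 0.12), Ttr (-0.037 to 0.96), Canx (-0.088 to 0.032) and Scoc (-0.28 to 0.018). The cause of these shifts was not tested. The Bgn difference, -9.51 FPKM, ran from -11.0 to -8.34 when 1 library was left out. Without read numbers, the precision of genes near 1 FPKM cannot be given.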

Other observations

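Loci without a gene name took 46.8 to 70.4% of the FPKM of a library and were not tested. Over the 54 gene lists examined, 28 had a median log2 fold above 0 in BgnKO and 26 below, and the 18 lists not described had medians from -0.21 to 0.56.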
